A study of Homo sapiens with 40 samples.

Results

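The 39 genes described here are the kinesin motors whose symbol is KIF followed by a number and, for some, a letter from A to C. They were picked by symbol alone, out of 55765 symbols in the count files. From textbook roles, 13 were classed as mitotic kinesins, 13 as transport kinesins and 13 as other kinesins, with earlier results of these data known. All libraries came from HEK293, an established human embryonic kidney line. In the RNA immunoprecipitation (RIP) experiment, untransfected cells gave total RNA and RNA recovered with antibodies against endogenous eIF4A1, eIF4A2 or DDX6 (n = 3 each). In the sucrose gradient experiment, cells carrying control siRNA or CNOT1 siRNA gave input RNA, pooled subpolysomal fractions and pooled polysomal fractions (n = 4 for each of 6 groups). In the third experiment, total RNA was compared between cells given control siRNA and cells given siRNAs against TNRC6A and TNRC6B together (n = 2 each). The labels do not say that replicates came from separate cultures, so p-values measure the spread between these libraries only. In bulk RNA, fewer cells expressing a gene and less of its RNA per cell cannot be told apart.

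Kinesins are ATP-driven motors that walk along microtubules or take their ends apart. Mitotic kinesins build the spindle, move chromosomes and close the cell at cytokinesis, and their mRNAs mostly peak late in the cell cycle. Transport kinesins carry vesicles, organelles and ciliary cargo, either as heavy chains with light chains or as single-gene motors. eIF4A1 is the RNA helicase of translation initiation and eIF4A2 is its close paralogue. CNOT1 is the scaffold of the Ccr4-Not deadenylase complex, to which DDX6 binds, and TNRC6 proteins link miRNA-loaded Argonaute to that complex. The comparisons ask which kinesin mRNAs the 3 helicases hold, how far each kinesin mRNA sits in polysomes, and what changes when CNOT1 or TNRC6A and TNRC6B are depleted.

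Total counts ran from 15353317 to 46018900 per library, and kinesins took 0.177 to 0.361% of them. Levels are counts scaled to a common library size (CPM) with trimmed-mean (TMM) factors set within each experiment, and folds are log2 ratios from edgeR's quasi-likelihood test with its standard error (SE). FDR is the Benjamini-Hochberg adjusted p over all genes tested, and a gene was called below 0.05. The HEK293 genes NEFM, NEFL and LIN28B were present and PAX2 was near 0, while the blood, T cell and liver markers PTPRC, CD3E and ALB stayed at or below 0.4 CPM. The fibroblast collagen COL1A1 was detected, at 8.78 to 18.1 CPM in the RIP libraries and 1.13 to 9.59 CPM in the gradient libraries. CNOT1 fell in the CNOT1 siRNA input libraries, from 687, 711, 661 and 627 CPM to 41.4, 36.8, 39.9 and 40.4 CPM (log2 fold change −4.08, FDR 2.40e-16). Among the polysomal libraries 2 went against their labels. The library labelled control siRNA polysomal 3 held 28.3 CPM of CNOT1 against 470, 500 and 478 CPM in the other control libraries, and the library labelled CNOT1 siRNA polysomal 3 held 631 CPM against 29.0, 24 and 31.6 CPM. Results that use polysomal RNA are therefore given with and without both of these libraries.

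Most of the family was expressed, and its coding sequences were long. KIF2B, a microtubule depolymerase of the mitotic group, had no count in any of the 40 libraries, which allows up to 0.0652 CPM in the deepest library and 0.195 CPM in the shallowest, for counting error only. KIF4B, KIF19, KIF12 and KIF25 had few counts, with 1 to 13 per library for KIF4B, 0 to 7 for KIF19, 0 to 37 for KIF12 and 0 to 66 for KIF25. A filter on low counts kept 36 members for testing in RIP, 36 in the gradients and 34 after TNRC6 siRNA. The coding sequence had a median of 3099 nt (range 1155 to 6327 nt), against 1446 nt over 12507 coding genes, and 38 of 39 members lay above that median. Mitotic and transport members differed more in their UTRs and base composition than in coding length. The median 3′UTR was 588 nt for mitotic and 3226 nt for transport kinesins, the median GC content of the 5′UTR was 61.0 and 72.2%, and the median GC content of the coding sequence was 45.6 and 49.5%.

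Per kilobase of mRNA, the scale on which genes can be set against each other, a transport motor led the family. In control siRNA input RNA, KIF5B, the ubiquitous heavy chain of conventional kinesin, stood at 115 ± 5.26 CPM per kb (SD, n = 4). On the length of 1 transcript per gene, the next 6 places belonged to mitotic kinesins. KIF20A, which takes Aurora B to the central spindle, was at 63.6 ± 4.31 CPM per kb and did not clear the spread of KIF22, the chromosome-arm motor, at 59.8 ± 4.60. KIF2C, the centromeric depolymerase, was at 52.9 ± 1.30, KIF23, the motor subunit of centralspindlin, at 46.1 ± 1.20, and KIF11, which pushes spindle poles apart, at 43.0 ± 1.78 CPM per kb. The order depends on the transcript chosen, since counts are per gene. Over all annotated exons of a gene KIF5B stayed first (115 ± 5.26 CPM per kb) and KIF20A second (51.1 ± 3.46), whereas KIF22, with 2081 nt in the transcript and 7169 nt over all exons, went to place 9 (17.4 ± 1.34 CPM per kb).

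The study's question about purine-rich motifs before the start codon makes the last 30 nt of the 5′UTR worth seeing for the members on which the RIP results turn. KIF5B, KIF20A and KIF20B were lower in all 3 immunoprecipitates, and KIF13A, KIF3B and, with eIF4A1, KIF1C were higher. The sequences are mRNA sense, 5′ to 3′, written as DNA, and come from GENCODE release 44 lifted to GRCh37. Capitals mark the 8 purine tetramers searched on the mRNA strand (AAGA or AGAA or GAAA or GAGA or AGAG or GGAA or AAAA or GAAG), with overlapping matches running together. The first 3 are genes at chr10:32297943-32345353 (minus strand), chr5:137514408-137523412 (plus) and chr10:91461347-91534696 (plus), and the last 3 are at chr6:17759414-17987866 (minus), chr20:30865454-30922814 (plus) and chr17:4901245-4931696 (plus).
KIF5B: tcccggccgccggccccggctgcGAGAAAg
KIF20A: cgtcttcggacctaggctgcccctgccgtc
KIF20B: gggtctggctagtcaggcGAAGtttgcaga
KIF13A: gcggcgagcggccgggcgagcgcagccaac
KIF3B: tctcAAGAtttgactggatcAGAGttcatc
KIF1C: cagctgaggagggcaggagtgtctggagct
Both sets of 3 hold windows with and without a tetramer. Of the 37 members with a window of this length, 17 (45.9%) held at least 1 tetramer, against 48.0% of 17531 coding genes. The next pair is shown because it limits the counts of a gene.
KIF4A: tttagtttGAGAcggtgctGAGAtaggatc
KIF4B: tttagtttGAGAcggtgctGAGAtaggatc
These 2 windows are the same in every base. KIF4A has 31 exons and KIF4B has 1, so reads of KIF4A may be split between the 2 genes, and values of KIF4B are uncertain.

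Mitotic kinesin mRNAs were lower with all 3 helicases than in total RNA, whereas transport kinesins went both ways. With eIF4A1, 10 of 11 mitotic kinesins tested were lower and none was higher, with a median log2 fold change of −0.92. Among 13 transport kinesins 3 were higher and 4 lower (median −0.35), and among 12 other kinesins 4 were higher and 4 lower (median 0.18). Over all 17474 genes tested 26.1% were higher and 26.5% lower, with a median of 0.04. With eIF4A2, 0 mitotic kinesins were higher and 8 lower (median −0.59), 2 transport kinesins were higher and 5 lower (median −0.12), and 3 of the others were higher and none lower, beside 24.5 and 25.8% of all genes. With DDX6 the counts were 0 and 9 (median −0.66), 2 and 3 (median −0.29), and 3 and 2 (median 0.09), beside 22.7 and 23.3% of all genes. With replicate number as a block, which pairs the libraries of one number, 32, 23 and 22 kinesins were called with eIF4A1, eIF4A2 and DDX6, beside 64.5, 62.4 and 60.0% of all genes. The 3 comparisons share the same total RNA libraries. A library's share is what was compared, and no immunoprecipitate from a control antibody was analysed here.

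**Figure D1:**
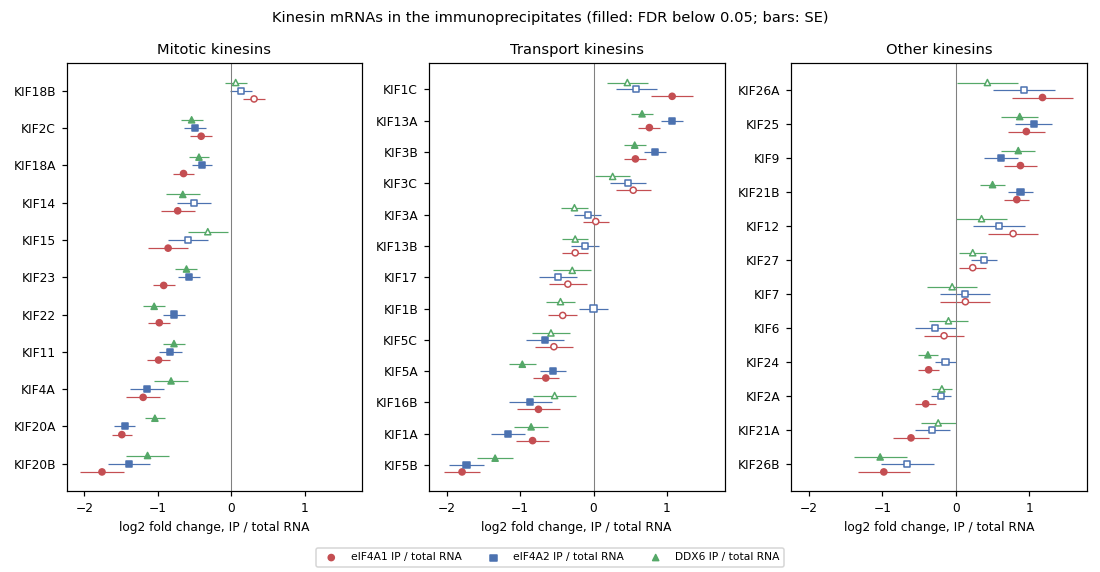
Each point is the log2 fold change of a kinesin mRNA in an immunoprecipitate over total RNA (x axis, with its SE as a bar), for eIF4A1, eIF4A2 and DDX6 (n = 3 each), with members grouped as mitotic, transport and other kinesins. Filled points were called at an FDR below 0.05. All called mitotic kinesins lie below 0, while transport kinesins run from KIF5B at −1.79 to KIF1C at 1.07.

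The cytokinesis motors KIF20A and KIF20B were among the members furthest below total RNA. KIF20A stood at 168, 150 and 121 CPM in total RNA, at 48.9, 50.5 and 56.7 CPM with eIF4A1, at 56.6, 51.6 and 51.7 CPM with eIF4A2, and at 77.6, 66.7 and 69.6 CPM with DDX6. Each of the 9 immunoprecipitates lay below every total RNA library, and the DDX6 libraries lay above those of both eIF4A proteins. The log2 fold changes were −1.49 ± 0.14 (SE, FDR 4.03e-06), −1.45 ± 0.14 (FDR 4.04e-06) and −1.04 ± 0.14 (FDR 9.18e-05). KIF20B, which works at the midbody, had 99.1, 93.5 and 115 CPM in total RNA, 17.3, 30.3 and 42.9 CPM with eIF4A1, 51.1, 38.5 and 28.2 CPM with eIF4A2, and 50.3, 34.7 and 55 CPM with DDX6. The immunoprecipitates again did not reach the total RNA libraries, but the eIF4A1 libraries were spread wide among themselves. The fold changes were −1.76 ± 0.30 (FDR 2.83e-04), −1.39 ± 0.29 (FDR 0.00155) and −1.14 ± 0.29 (FDR 0.00644). Exons of KIF20A share 5.3% of their length with genes on the opposite strand (BRD8 and CDC23), and whether the counting used strand is not given in the sources used here.

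Spindle motors and chromosome motors were lower as well. KIF11 had 166, 177 and 177 CPM in total RNA, 85.5, 72.7 and 103 CPM with eIF4A1, 107, 88.7 and 95.7 CPM with eIF4A2, and 107, 84.3 and 111 CPM with DDX6. No immunoprecipitate overlapped total RNA, and the fold changes were −0.99 ± 0.16 (FDR 1.62e-04), −0.83 ± 0.16 (FDR 6.06e-04) and −0.78 ± 0.15 (FDR 0.00126). KIF4A, the chromokinesin that shortens the central spindle, went from 113, 109 and 97.8 CPM in total RNA to 36.5, 47.2 and 55 CPM with eIF4A1, 63.7, 49.8 and 30.5 CPM with eIF4A2, and 72.1, 53.1 and 56.4 CPM with DDX6. Its fold changes were −1.20 ± 0.23, −1.15 ± 0.23 and −0.82 ± 0.23, all called. KIF22 had 169, 165 and 140 CPM in total RNA and between 63.0 and 94.1 CPM in the 9 immunoprecipitates (−0.98, −0.78 and −1.05, each ± 0.15). KIF23 had 132, 130 and 118 CPM in total RNA, 66.0, 59.6 and 75.7 CPM with eIF4A1, 92.4, 76.7 and 85.4 CPM with eIF4A2, and 93.8, 68.6 and 85.9 CPM with DDX6 (−0.92, −0.58 and −0.61, each ± 0.15). For KIF5B, KIF20A, KIF20B, KIF4A, KIF11, KIF22 and KIF23, each of these calls held whichever single library was left out.

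For the rest of the mitotic group, most calls turned on single libraries. KIF15, a backup for KIF11 in holding the spindle open, had 53.0, 48.4 and 56.2 CPM in total RNA, 17.7, 31.4 and 37.8 CPM with eIF4A1, 43.4, 40.2 and 21.6 CPM with eIF4A2, and 47.3, 35.4 and 43.2 CPM with DDX6. It was called with eIF4A1 (−0.86 ± 0.27, FDR 0.0177), but not without total RNA 3 (−0.81) or eIF4A1 immunoprecipitate 1 (−0.60). KIF14, a cytokinesis motor, had 79.9, 88.2 and 113 CPM in total RNA, 53.8, 42.6 and 73.1 CPM with eIF4A1, 73.7, 56.8 and 66.5 CPM with eIF4A2, and 65.3, 42.1 and 69.7 CPM with DDX6. It was called with eIF4A1 (−0.73 ± 0.23) and DDX6 (−0.66 ± 0.23). Those calls were lost without total RNA 3 (−0.58 and −0.51) and without immunoprecipitate 2 (−0.56 and −0.47). With eIF4A2 KIF14 was at −0.51 ± 0.23 (FDR 0.0745) and was called only with replicate number as a block (−0.51 ± 0.14, FDR 0.00778).

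KIF18A, which caps the length of kinetochore microtubules, had 32.5, 30.9 and 31.4 CPM in total RNA, 19.5, 17.4 and 23.4 CPM with eIF4A1, 24.3, 23.5 and 24.1 CPM with eIF4A2, and 24.5, 20.1 and 25.4 CPM with DDX6. The groups did not overlap total RNA and the fold changes were −0.65 ± 0.14 (FDR 0.00142), −0.40 ± 0.14 (FDR 0.0261) and −0.44 ± 0.14 (FDR 0.0183). The eIF4A2 call was lost on leaving out any single library but total RNA 3 (−0.38 to −0.41), and the DDX6 call without total RNA 1 (−0.42) or DDX6 immunoprecipitate 2 (−0.33). KIF2C had 161, 145 and 129 CPM in total RNA, 118, 89.2 and 121 CPM with eIF4A1, 108, 90.6 and 109 CPM with eIF4A2, and 106, 89.9 and 103 CPM with DDX6 (−0.41, −0.50 and −0.54, each ± 0.15). The 3 calls of KIF2C were all lost without total RNA 1 (−0.33, −0.42 and −0.46). The eIF4A1 call was also lost without total RNA 2 (−0.41) or eIF4A1 immunoprecipitate 2 (−0.29), and the eIF4A2 call without eIF4A2 immunoprecipitate 2 (−0.42). KIF18B, which acts on astral microtubules, was the mitotic member above 0, at 0.31 ± 0.15 with eIF4A1 (FDR 0.097). With replicate number as a block it was called there (0.32 ± 0.10, FDR 0.0155).

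Among transport kinesins the 3 heavy chains of conventional kinesin were all below total RNA. KIF5B had 464, 538 and 512 CPM in total RNA, 96.6, 132 and 208 CPM with eIF4A1, 168, 137 and 151 CPM with eIF4A2, and 210, 154 and 236 CPM with DDX6. The highest immunoprecipitate, DDX6 3, lay below every total RNA library. The fold changes were −1.79 ± 0.24 (FDR 5.44e-05), −1.73 ± 0.24 (FDR 6.77e-05) and −1.34 ± 0.24 (FDR 6.48e-04), the furthest below 0 of the 36 members tested with each protein. KIF5A, a neuronal heavy chain, was at −0.65 ± 0.18, −0.55 ± 0.18 and −0.97 ± 0.18, all called. Its eIF4A2 call was lost without total RNA 3 (−0.50) or eIF4A2 immunoprecipitate 3 (−0.42). KIF5C, the other neuronal heavy chain, had 51.3, 61.8 and 74.7 CPM in total RNA, 32.7, 34.6 and 61.5 CPM with eIF4A1, 45.5, 41.3 and 32.2 CPM with eIF4A2, and 42.2, 30.8 and 52.7 CPM with DDX6. The eIF4A1 and DDX6 libraries overlapped total RNA. KIF5C was called only with eIF4A2 (−0.66 ± 0.26, FDR 0.0465), and that call was lost on leaving out any single library but total RNA 1 (−0.52 to −0.77). Under the replicate block it was called also with eIF4A1 (−0.57 ± 0.21, FDR 0.0292) and DDX6 (−0.59 ± 0.21, FDR 0.0273).

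The single-gene motors of the kinesin-3 family split by member. KIF13A, which carries trans-Golgi and endosomal cargo, had 37.8, 40.6 and 40.5 CPM in total RNA, 63.4, 62.9 and 75.6 CPM with eIF4A1, 91.7, 90.7 and 67.9 CPM with eIF4A2, and 62.6, 56.5 and 68.6 CPM with DDX6. Every immunoprecipitate lay above total RNA, with fold changes of 0.76 ± 0.15 (FDR 7.11e-04), 1.07 ± 0.15 (FDR 5.47e-05) and 0.66 ± 0.15 (FDR 0.00254), and no library left out changed a call. KIF1C, a motor for Golgi-derived and dense-core vesicles, had 230, 262 and 201 CPM in total RNA, 464, 544 and 445 CPM with eIF4A1, 400, 470 and 164 CPM with eIF4A2, and 315, 359 and 278 CPM with DDX6. It was called with eIF4A1 (1.07 ± 0.29, FDR 0.00695). The eIF4A2 library 3 was below total RNA and the other two were above it, and without library 3 KIF1C was called with eIF4A2 as well (0.91, against 0.58 ± 0.28 and an FDR of 0.108 with it). Under the block, KIF1C was called with eIF4A2 too (0.50 ± 0.21, FDR 0.0476). KIF1A, the carrier of synaptic vesicle precursors, went the other way at a low level, with 7.13, 9.36 and 5.13 CPM in total RNA and between 2.36 and 4.59 CPM in the immunoprecipitates. Its fold changes were −0.83 ± 0.23, −1.16 ± 0.23 and −0.85 ± 0.23, all called. Without total RNA 2 the eIF4A1 and DDX6 calls of KIF1A were lost (−0.59 and −0.61). KIF1B, linked to mitochondria and synaptic vesicles, had 192, 211 and 218 CPM in total RNA, 174, 112 and 177 CPM with eIF4A1, 210, 177 and 234 CPM with eIF4A2, and 169, 112 and 174 CPM with DDX6. It was not called (−0.42, −0.00 and −0.45, each ± 0.20). With replicate number as a block KIF1B was called with eIF4A1 (−0.46 ± 0.14, FDR 0.01) and DDX6 (−0.48 ± 0.14, FDR 0.00823).

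The subunits of kinesin-2, the motor of anterograde ciliary transport, did not move together. KIF3B had 79.8, 90.5 and 77.9 CPM in total RNA, 114, 120 and 134 CPM with eIF4A1, 161, 169 and 114 CPM with eIF4A2, and 128, 114 and 125 CPM with DDX6. The groups did not overlap total RNA, and KIF3B was called with each (0.57, 0.84 and 0.56, each ± 0.15). Its partner KIF3A had 65.7, 73.6 and 88.4 CPM in total RNA, 79.2, 59.3 and 93.1 CPM with eIF4A1, 77.5, 68.9 and 68.8 CPM with eIF4A2, and 64.1, 52.2 and 73.6 CPM with DDX6. All 3 groups of KIF3A overlapped total RNA and none was called (0.03, −0.08 and −0.26, each ± 0.18).

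In the third class, members were called higher about as often as all genes. Of all genes 26.1, 24.5 and 22.7% were higher with eIF4A1, eIF4A2 and DDX6. The members called higher were at low or moderate levels. KIF26A, a kinesin without motor activity, had 50.7, 50.1 and 24.5 CPM in total RNA and 142, 91.9 and 50.6 CPM with eIF4A1 (1.18 ± 0.42, FDR 0.0315). Library 3 was the lowest of its group in both, the groups overlapped, and the call was lost without total RNA 3 (0.91), eIF4A1 immunoprecipitate 1 (0.77) or eIF4A1 immunoprecipitate 2 (1.20). KIF21B, a microtubule-pausing motor, went from 5.26, 6.59 and 6.82 CPM to 10.7, 10 and 12.3 CPM with eIF4A1 and 11.3, 13.6 and 9.39 CPM with eIF4A2 (0.83 ± 0.17, FDR 0.00109, and 0.88 ± 0.17, FDR 7.41e-04). With DDX6 KIF21B had 8.35, 8.91 and 9.19 CPM (0.50, FDR 0.0249). That call was lost without total RNA 1 (0.40) or DDX6 immunoprecipitate 2 (0.50) or 3 (0.48). KIF9, a motor of motile cilia, had 6.26, 6.53 and 4.81 CPM in total RNA, 10.2, 13.4 and 8.82 CPM with eIF4A1 and 9.43, 14.0 and 8.36 CPM with DDX6 (0.88 and 0.85, each ± 0.23). With eIF4A2 KIF9 had 8.65, 10.7 and 7.73 CPM, also above every total RNA library. KIF25 was called higher with all 3 proteins (0.96, 1.06 and 0.87, each ± 0.25) on 14 to 66 counts per RIP library. Exons of KIF9 share 17.8% of their length with opposite-strand genes, and those of KIF2A share 18.7% with the opposite-strand gene DIMT1. KIF2A, a depolymerase of spindle poles and growing neurites, had 114, 123 and 118 CPM in total RNA, 82.2, 80.0 and 106 CPM with eIF4A1, 96.5, 106 and 106 CPM with eIF4A2, and 110, 91.1 and 111 CPM with DDX6. It was called with eIF4A1 only (−0.41 ± 0.14, FDR 0.0246), and not without total RNA 2 (−0.38), eIF4A1 immunoprecipitate 1 (−0.35) or 2 (−0.34). KIF21A and KIF7 had 69.1, 79.0 and 82.5 CPM and 57.4, 64.2 and 43.1 CPM in total RNA. With eIF4A1, KIF21A had 36.8, 44.9 and 69.0 CPM (−0.61 ± 0.25, FDR 0.0493). This call was lost on leaving out any single library but eIF4A1 immunoprecipitate 3 (−0.43 to −0.68). KIF7, the regulator of Hedgehog signalling at the tip of the cilium, was called with none (0.13, 0.13 and −0.05, each ± 0.34).

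Differences between the 3 proteins were few. Between eIF4A2 and eIF4A1 no kinesin was called by edgeR, beside 1.06% of all genes, or by DESeq2, beside 4.01%. At an unadjusted p below 0.05 there was 1 of 36, beside 17.8% of all genes. With replicate number as a block KIF1B was higher with eIF4A2 than with eIF4A1 (0.44 ± 0.14, FDR 0.0466), when 15.8% of all genes were called. Between eIF4A2 and DDX6, where 21.1% of all genes were called, 1 kinesin was called. KIF20A was lower with eIF4A2 (−0.42, FDR 0.0479), and that call was lost whichever of the 6 libraries was left out (−0.36 to −0.47). The block added KIF13A (0.42 ± 0.13), KIF1B (0.46 ± 0.14) and KIF5A (0.43 ± 0.16), all higher with eIF4A2 than with DDX6, when 40.5% of all genes were called. Between DDX6 and eIF4A1 no kinesin was called by edgeR, beside 0.0916% of all genes. At an unadjusted p below 0.05 there were 2 kinesins, beside 14.0% of all genes. DESeq2 called 1, beside 4.37% of all genes, and the block called KIF20A (0.45 ± 0.12, FDR 0.0324), when 9.90% of all genes were called.

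Across the 36 members, the ratio of immunoprecipitate to total RNA went most with the base composition of the coding sequence. Pearson's r with the GC content of the coding sequence was 0.54 for eIF4A1, 0.43 for eIF4A2 and 0.35 for DDX6, against 0.32, 0.23 and 0.22 over 12854 coding genes. With purine tetramers per 100 nt of coding sequence r was −0.49, −0.40 and −0.32, against −0.29, −0.23 and −0.20 over all. The GC content of the 3′UTR gave 0.45, 0.33 and 0.30 and that of the 5′UTR 0.17, 0.12 and 0.12, over 34 members for the 5′UTR. Purine tetramers per 100 nt of 5′UTR gave −0.23, −0.23 and −0.26 over 34 members. The length of the coding sequence gave −0.15, −0.07 and −0.17, and the length of the 5′UTR 0.26, 0.29 and 0.30. For the direct ratio of eIF4A2 to eIF4A1, r was 0.46 with coding tetramers and −0.53 with coding GC content, against 0.13 and −0.21 over all. For the ratio of DDX6 to eIF4A1 both were further from 0, at 0.68 and −0.72, against 0.32 and −0.36 over all. Both ratios are taken over the same eIF4A1 libraries, and the positive r with coding tetramers was not particular to eIF4A2. For the ratio of eIF4A2 to DDX6 the signs were the other way, at −0.41 and 0.41, against −0.10 and 0.07. With 5′UTR tetramers r was 0.07 for eIF4A2 to eIF4A1, 0.12 for DDX6 to eIF4A1 and −0.08 for eIF4A2 to DDX6. These are correlations across genes, which are not independent replicates, and the points share libraries, while GC content and purine tetramers share bases. The part of GC content in the lower values of mitotic kinesins, whose median coding GC content was 45.6%, was not tested.

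Most partners of the mitotic motors were lower with the helicases too. Of 14 mitotic partners (Aurora kinases, chromosomal passengers, cyclin B and others), 10 were lower and none higher with eIF4A1, 12 and none with eIF4A2, and 9 and none with DDX6. Beside every list given here, 26.5, 25.8 and 23.3% of all genes were lower and 26.1, 24.5 and 22.7% higher. TPX2, a spindle assembly factor that binds KIF11, was at −1.51 ± 0.18 with eIF4A1. The 5 motors outside the symbol rule gave 1 higher and 1 lower with eIF4A1, 2 and 2 with eIF4A2, and 1 and 1 with DDX6. CENPE, the kinetochore motor, was at −2.24 ± 0.46 (FDR 0.00118) with eIF4A1, and the minus-end motor KIFC3 at 1.03 ± 0.20. Of 14 light chains and cargo adaptors 5, 4 and 4 were higher and 5, 6 and 3 lower, led by the adaptor FEZ1 (1.62 ± 0.30 with DDX6) and by KIAA1279, a kinesin-binding protein (−1.60 ± 0.12 with eIF4A2). Of 18 dynein and dynactin subunits 3, 2 and 4 were higher and 9, 12 and 8 lower, including the heavy chain DYNC1H1 (−1.57 ± 0.23 with DDX6).

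In the gradient, transport kinesins were skewed towards polysomes and mitotic kinesins lay near the middle. With control siRNA, 9 of 13 transport kinesins were higher in polysomal than in subpolysomal RNA and 1 was lower, with a median log2 ratio of 0.99. Of 12 mitotic kinesins 4 were higher and 2 lower (median 0.16), and of 11 other kinesins 5 were higher and 4 lower (median 0.62). Over all 16776 genes 30.5% were higher and 33.5% lower, with a median of −0.02. Without both polysomal libraries of number 3 the counts were 9 and 2 for transport (median 0.72), 3 and 1 for mitotic (median 0.03) and 4 and 3 for other kinesins (median 0.26), beside 30.2 and 35.1% of all genes and a median of −0.10. With CNOT1 siRNA, transport kinesins gave 8 higher and 1 lower (median 0.85), mitotic kinesins 4 and 2 (median 0.21) and other kinesins 6 and 3 (median 0.64), beside 32.7 and 33.2% of all genes. Without both libraries of number 3, whose removal left 34.8 and 34.5% of all genes called, these became 8 and 1, 4 and 2, and 6 and 4. Ratios between fractions compare shares of 2 libraries and not amounts of RNA.

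**Figure D2:**
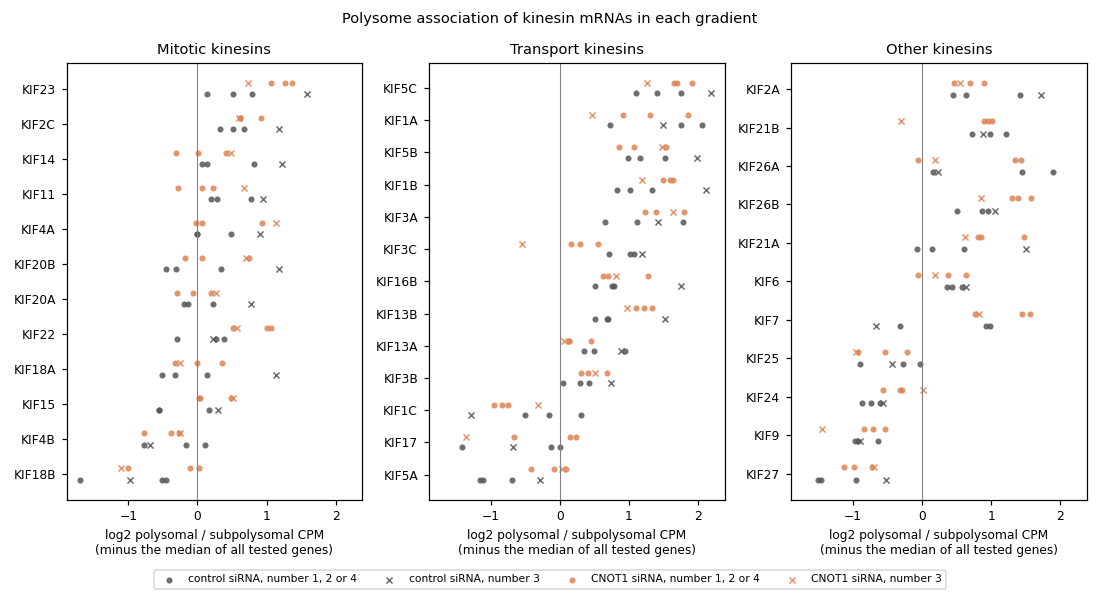
Each point is 1 gradient, placed by its log2 ratio of polysomal to subpolysomal CPM (with 0.5 CPM added to each) after the median of all tested genes was subtracted, for mitotic, transport and other kinesins. Circles are gradients of number 1, 2 or 4 and crosses those of number 3, in grey for control siRNA and orange for CNOT1 siRNA. KIF5C, KIF1A, KIF5B, KIF1B and KIF3A lie above 0 in every gradient.

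KIF5B, called lower with each helicase, and KIF5C, called lower with eIF4A2, were among the members furthest towards polysomes. KIF5B had 251, 253, 175 and 195 CPM in control subpolysomal RNA and 490, 549, 695 and 522 CPM in control polysomal RNA, where 695 CPM is the library labelled control siRNA polysomal 3. The fractions did not overlap with or without that library, and the log2 ratio was 1.37 ± 0.18 (FDR 2.62e-05), or 1.27 ± 0.15 without both number 3 libraries. KIF5C had 22.7, 19.2, 21.1 and 18.4 CPM in subpolysomal and 48.5, 50.4, 97.8 and 58.6 CPM in polysomal RNA (1.65 ± 0.22, FDR 3.86e-05, and 1.38 ± 0.14 without). With CNOT1 siRNA the ratios were 1.20 ± 0.16 for KIF5B and 1.63 ± 0.15 for KIF5C, and without both number 3 libraries 1.20 ± 0.16 and 1.66 ± 0.15. The neuronal KIF5A was on the other side with control siRNA (−0.85 ± 0.24, FDR 0.00818, and −1.11 ± 0.18 without) and was not called with CNOT1 siRNA (−0.11 ± 0.18, and −0.13 ± 0.17 without).

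KIF1A, KIF1B and KIF3A were also well towards polysomes. KIF1A had 1.16, 0.817, 1.85 and 2.90 CPM in control subpolysomal and 5.01, 4.84, 6.12 and 4.72 CPM in control polysomal RNA (1.64 ± 0.33, FDR 8.19e-04, and 1.58 ± 0.33 without number 3). KIF1B had 81.1, 73.0, 71.7 and 62.0 CPM in control subpolysomal and 141, 143, 312 and 145 CPM in control polysomal RNA. The value of 312 CPM belongs to the library labelled control siRNA polysomal 3, and the other three lay close together and above every subpolysomal library. The log2 ratio of KIF1B was 1.36 ± 0.25 (FDR 3.95e-04), or 1.00 ± 0.12 without number 3 (FDR 2.32e-05). KIF3A had 31.7, 26.5, 28.0 and 16.7 CPM in control subpolysomal and 49.4, 56.4, 75.8 and 54.2 CPM in control polysomal RNA (1.19 ± 0.21, and 1.06 ± 0.19 without number 3). Its partner KIF3B was closer to even, at 118, 109, 88.6 and 99.2 CPM against 119, 130, 148 and 123 CPM (0.33 ± 0.15, FDR 0.0641, and 0.27 ± 0.13 without).

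Transport kinesins that were not towards polysomes included KIF1C. It had 216, 275, 328 and 306 CPM in control subpolysomal and 262, 239, 135 and 200 CPM in control polysomal RNA, the 135 CPM being the library labelled control siRNA polysomal 3. The fractions overlapped and KIF1C was not called (−0.43 ± 0.21, FDR 0.0876, and −0.25 ± 0.16 without number 3). With CNOT1 siRNA it had 251, 295, 255 and 301 CPM in subpolysomal and 151, 167, 196 and 155 CPM in polysomal RNA, which did not overlap (−0.72 ± 0.12, FDR 1.70e-04, and −0.79 ± 0.11 without).

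Among mitotic kinesins KIF23 and KIF2C were towards polysomes with both siRNAs. KIF23 had 120, 104, 96.0 and 89.9 CPM in control subpolysomal and 129, 144, 290 and 144 CPM in control polysomal RNA. The library labelled control siRNA polysomal 3, at 290 CPM, stood far above the other three, and the ratio moved from 0.79 ± 0.24 (FDR 0.0111) to 0.46 ± 0.13 (FDR 0.00795) without number 3. With CNOT1 siRNA KIF23 had 94.7, 104, 98.9 and 86.6 CPM in subpolysomal and 232, 221, 157 and 224 CPM in polysomal RNA (1.12 ± 0.14, FDR 9.72e-06, and 1.24 ± 0.11 without). KIF2C had 99.1, 92.5, 89.1 and 86.0 CPM in control subpolysomal and 121, 128, 202 and 127 CPM in control polysomal RNA (0.66 ± 0.18, FDR 0.00562, and 0.47 ± 0.11 without), and its ratio with CNOT1 siRNA was 0.68 (FDR 1.48e-04, and 0.74 ± 0.11 without). KIF11 had 113, 115, 85.9 and 90.3 CPM and 127, 136, 167 and 143 CPM in the same fractions. Its fractions did not overlap with control siRNA (0.50 ± 0.15, FDR 0.0122, and 0.43 ± 0.14 without), but did with CNOT1 siRNA (0.16 ± 0.14, and 0.06 ± 0.13 without, neither called).

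KIF14 had 52.5, 52, 34.3 and 32.9 CPM in control subpolysomal and 54.1, 55.8, 81.4 and 54.2 CPM in control polysomal RNA (0.51 ± 0.21, FDR 0.0431). Its fractions did not overlap, but the call was lost without both number 3 libraries (0.36 ± 0.18) and without control siRNA subpolysomal 3 (0.43) or 4 (0.41). The other mitotic kinesins overlapped between control fractions. KIF20A, at 166, 184, 118 and 138 CPM in subpolysomal and 143, 163, 203 and 149 CPM in polysomal RNA, was at 0.12 ± 0.17, and KIF20B was at 0.20 ± 0.25, neither called with the number 3 libraries or without them (0.01 ± 0.15 and −0.13 ± 0.16). KIF22, KIF4A, KIF15 and KIF18A were not called with control siRNA either (0.10, 0.29, −0.19 and 0.12), nor without number 3 (0.05, 0.23, −0.35 and −0.19), where KIF18A and KIF20B changed sign. With CNOT1 siRNA KIF22 was towards polysomes (0.79 ± 0.13, FDR 1.38e-04, and 0.88 ± 0.12 without). KIF18B had 98.0, 73.4, 147 and 150 CPM in control subpolysomal and 66.9, 51.8, 75 and 42.4 CPM in control polysomal RNA, and was the mitotic member furthest from polysomes after the sparsely counted KIF4B (−0.99 ± 0.25, FDR 0.0034, and −1.11 ± 0.25 without). In the other kinesins, KIF27, a paralogue of KIF7, was low in polysomes, at 9.60, 9.26, 6.80 and 8.77 CPM against 3.08, 2.86, 4.59 and 3.91 CPM (−1.25 ± 0.22, FDR 2.84e-04, and −1.38 ± 0.20 without). Exons of KIF27 share 10.7% of their length with opposite-strand genes. KIF26B, the long relative of KIF26A, was at 0.819, 0.885, 1.41 and 1.06 CPM in subpolysomal and 2.79, 3.67, 2.84 and 3.59 CPM in polysomal RNA with CNOT1 siRNA (1.64 ± 0.24, FDR 4.27e-05, and 1.72 ± 0.24 without).

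Across the 36 members the control polysomal ratio went with the length of the 3′UTR (r = 0.44, against 0.03 over 12507 coding genes), of the whole mRNA (0.48 against 0.09) and of the coding sequence (0.30 against 0.11). With the GC content of the 5′UTR r was 0.41 over 35 members, against 0.11. These describe 36 genes that share libraries, and transport kinesins hold most of the long 3′UTRs. Without both number 3 libraries these members gave correlations, in the same order, of 0.44, 0.46, 0.24 and 0.42. In the pathway lists, 12 of 18 dynein and dynactin subunits were higher in control polysomes and 1 lower, 10 of 14 mitotic partners were higher and none lower, and 6 of 14 light chains and adaptors were higher and 1 lower. Beside these lists 30.5% of all genes were higher and 33.5% lower. The motors outside the symbol rule gave 1 and 1, where the minus-end motor KIFC2 was at −2.63 ± 0.40 (−2.44 ± 0.43 without number 3). Without number 3 the counts of these 4 lists were 13 and 1, 10 and 0, 5 and 1, and 1 and 1, beside 30.2 and 35.1% of all genes. With CNOT1 siRNA the list counts were 11 and 1, 10 and 1, 6 and 3, and 3 and 1, beside 32.7 and 33.2% of all genes. KIFAP3, the subunit that joins kinesin-2 to cargo, was then at 1.38 ± 0.16. Without number 3 the CNOT1 siRNA counts were 11 and 2, 10 and 1, 5 and 3, and 3 and 1, beside 34.8 and 34.5% of all genes. KIFAP3 was at 1.31 ± 0.15 there.

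In input RNA more kinesin mRNAs rose than fell after CNOT1 siRNA. Of 36 members 19 rose and 3 fell, with a median log2 fold change of 0.31, beside 28.0 and 29.6% of all genes and a median of −0.03. The share of all counts taken by kinesins ran from 0.283 to 0.299% in control libraries and from 0.344 to 0.361% after CNOT1 depletion. Among transport kinesins 8 of 13 rose and 1 fell (median 0.33), among mitotic kinesins 5 of 12 rose and 2 fell (median 0.11), and among the others 6 of 11 rose and none fell (median 0.40). Replicate numbers paired these libraries, and with replicate number as a block the counts were 22 and 4, beside 30.8 and 32.4% of all genes. A fit over all 24 gradient libraries called 8 members, beside 29.0% of all genes.

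**Figure D3:**
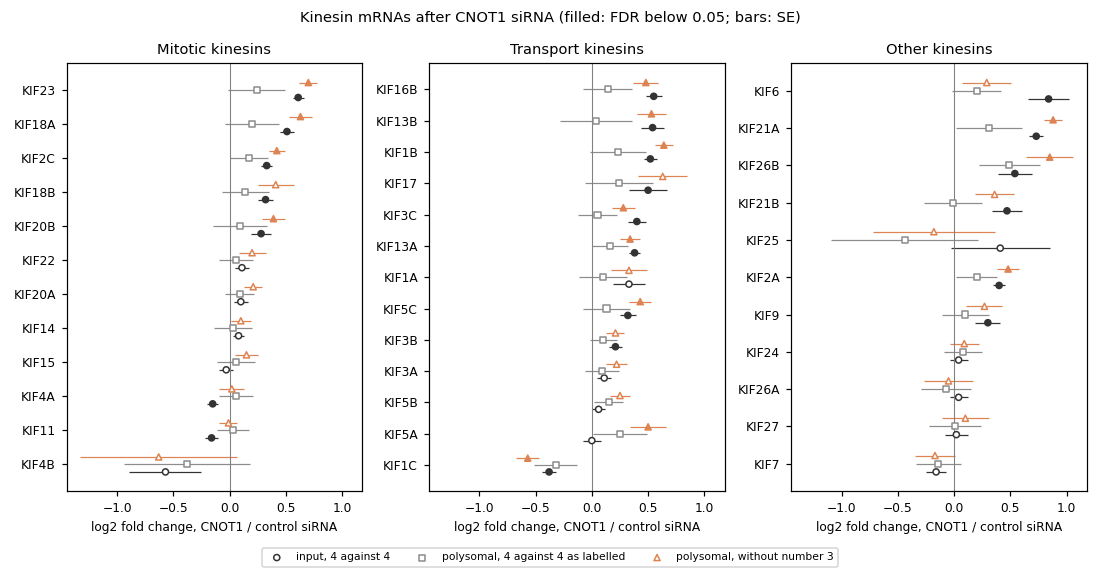
Points give the log2 fold change of each kinesin between CNOT1 siRNA and control siRNA (x axis, bars are SE). They are shown for input RNA and polysomal RNA as labelled (n = 4 per group). Polysomal values are also shown without both libraries of number 3 (n = 3 per group). Filled points were called at an FDR below 0.05. KIF21A, KIF23 and KIF1B lie to the right and KIF1C to the left in input RNA.

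KIF21A, a motor that restrains microtubule growth at the cell cortex, had 86.1, 86.5, 82.3 and 88.6 CPM in control and 149, 141, 148 and 132 CPM in CNOT1 siRNA input RNA. The groups were far apart, at 0.73 ± 0.06 on the log2 scale (FDR 3.85e-08). KIF23 had 170, 173, 162 and 169 CPM in control and 265, 255, 267 and 244 CPM in CNOT1 siRNA input (0.61 ± 0.05, FDR 1.13e-07). KIF1B had 221, 223, 222 and 213 CPM in control and 339, 310, 330 and 284 CPM in CNOT1 siRNA input (0.52 ± 0.06, FDR 2.08e-06). None of these 3 genes overlapped between the groups. KIF6, a motor of ependymal cilia, gave a larger ratio at about 1 CPM, from 1.04, 0.747, 0.761 and 0.903 CPM to 1.39, 1.59, 1.31 and 1.86 CPM (0.84 ± 0.18, FDR 0.00102).

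Further members rose in several roles. KIF18A had 37, 34.0, 35.5 and 39.0 CPM in control and 55.1, 50.6, 53.9 and 47.9 CPM in CNOT1 siRNA input (0.51 ± 0.06, FDR 5.59e-06). KIF2A had 122, 128, 122 and 131 CPM in control and 165, 172, 171 and 155 CPM in CNOT1 siRNA input (0.40 ± 0.05, FDR 1.17e-05), and KIF2C rose from 155, 154, 150 and 147 CPM to 197, 189, 194 and 179 CPM (0.33 ± 0.05, FDR 5.43e-05). KIF13A rose from 46.4, 46.0, 47.3 and 47.6 CPM to 62.4, 58.2, 62.8 and 59.5 CPM (0.38 ± 0.05, FDR 1.82e-05). These 4 genes did not overlap between the groups. KIF16B, the early endosome motor, KIF13B, a kinesin-3 motor for signalling cargo, and KIF3C, the third kinesin-2 motor, rose by 0.55 ± 0.07, 0.54 ± 0.10 and 0.40 ± 0.08. KIF5C and KIF3B rose by 0.32 ± 0.07 and 0.21 ± 0.06.

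The members that fell were KIF1C, KIF11 and KIF4A. KIF1C had 219, 216, 192 and 197 CPM in control and 157, 170, 143 and 165 CPM in CNOT1 siRNA input, with no overlap (−0.38 ± 0.06, FDR 1.10e-04). KIF11 had 213, 209, 211 and 229 CPM in control and 209, 193, 188 and 181 CPM in CNOT1 siRNA input (−0.16 ± 0.06, FDR 0.0217). Its groups met at 209 CPM, and the call was lost without control siRNA input 4 or CNOT1 siRNA input 4 (−0.14 each). KIF4A had 127, 130, 121 and 131 CPM in control and 122, 109, 111 and 118 CPM in CNOT1 siRNA input (−0.15 ± 0.05, FDR 0.0317). That call was lost in 5 of the 8 fits that left out 1 library, without control siRNA input 1 (−0.15), 2 (−0.14) or 4 (−0.13) and without CNOT1 siRNA input 2 (−0.12) or 3 (−0.13).

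Several abundant members were not called in input RNA. KIF5B had 654, 672, 651 and 718 CPM in control and 745, 734, 676 and 662 CPM in CNOT1 siRNA input (0.06 ± 0.06). KIF20A had 211, 205, 183 and 188 CPM in control and 227, 210, 206 and 201 CPM in CNOT1 siRNA input (0.10 ± 0.06, FDR 0.163). With replicate number as a block, KIF20A (0.10 ± 0.04, FDR 0.0354), KIF22 (0.12 ± 0.04, FDR 0.031) and KIF1A (0.33 ± 0.08, FDR 0.00402) were called higher and KIF7 (−0.16 ± 0.06, FDR 0.0435) lower. KIF14 and KIF15 were at 0.08 ± 0.05 and −0.03 ± 0.06, and KIF20B was called at 0.28 ± 0.09 but not without control siRNA input 1 (0.21).

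Most partners of the mitotic motors rose too, in a comparison where 28.0% of all genes rose and 29.6% fell. Of 14 mitotic partners 10 rose and 3 fell in CNOT1 siRNA input, with a median of 0.22, where AURKA, the spindle pole kinase, rose most (0.46 ± 0.05). The part of a change in the number of mitotic cells in these values was not tested. The other motor system went the other way, with 1 of 18 dynein and dynactin subunits higher and 10 lower. Of 14 light chains and adaptors 4 rose and 4 fell, and of the 5 motors outside the symbol rule 2 rose and 2 fell, KIFC3 by 0.97 ± 0.15 and KIFC2 at −1.21 ± 0.17.

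**Figure D4:**
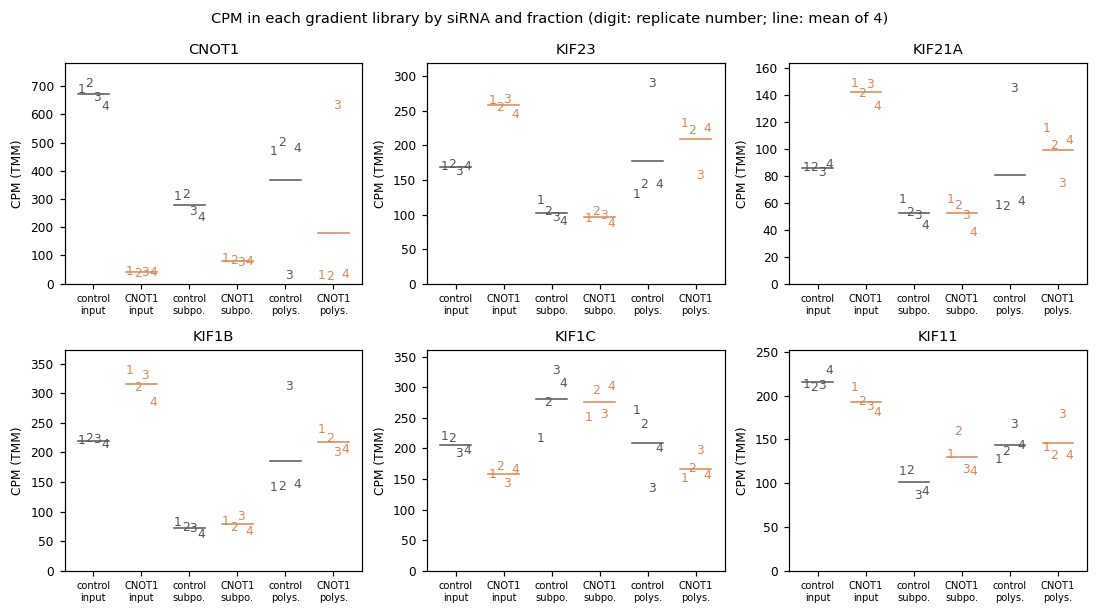
Level in CPM (y axis) of CNOT1, KIF23, KIF21A, KIF1B, KIF1C and KIF11 in each of the 24 gradient libraries. Libraries are of input, subpolysomal and polysomal RNA, in grey for control siRNA and orange for CNOT1 siRNA. Each library is drawn as the digit of its replicate number, and lines are means of 4 libraries. KIF23 in the library labelled control siRNA polysomal 3 (290 CPM) lies above the CNOT1 siRNA libraries, and the library labelled CNOT1 siRNA polysomal 3 (157 CPM) lies near the other control libraries.

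In subpolysomal RNA 3 kinesins rose and 2 fell after CNOT1 siRNA, beside 10.4 and 15.2% of all genes. KIF3C rose from 10.6, 9.62, 13.8 and 14.8 CPM to 21.3, 17.5, 32.7 and 22.8 CPM (0.95 ± 0.21, FDR 0.00825). KIF13A rose from 30, 30.7, 33.0 and 24.7 CPM to 47.5, 45.9, 51.1 and 38.3 CPM (0.62 ± 0.14, FDR 0.00741). KIF7 fell from 18.1, 14.3, 33.2 and 27.2 CPM to 8.45, 9.15, 11.9 and 11.8 CPM (−1.16 ± 0.25, FDR 0.00708), and KIF22 from 118, 107, 129 and 140 CPM to 72.4, 76.6, 81.1 and 90.1 CPM (−0.63 ± 0.12, FDR 0.00464). None of these 4 genes overlapped between the groups. Exons of KIF7 share 10.8% of their length with the opposite-strand gene TICRR, and those of KIF22 share 7.8% with another. KIF2A had 70.7, 81.7, 53.6 and 47.1 CPM against 96.6, 112, 89.5 and 80.4 CPM (0.58 ± 0.18, FDR 0.0326), which overlapped. Its call was lost without control siRNA subpolysomal 3 (0.51) or 4 (0.46) and without CNOT1 siRNA subpolysomal 1 (0.57), 2 (0.49) or 3 (0.61).

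Replicate numbers paired the subpolysomal libraries closely, and with replicate number as a block 10 kinesins were higher and 8 lower, beside 24.3 and 32.6% of all genes. The members added as higher included KIF11 (0.36 ± 0.07, FDR 1.13e-04), KIF14 (0.42 ± 0.08, FDR 8.10e-05), KIF18A (0.38 ± 0.08) and KIF5B (0.30 ± 0.08). Those added as lower included KIF15 (−0.39 ± 0.07, FDR 7.59e-05), KIF24, a centriolar depolymerase (−0.36 ± 0.08), and KIF5A (−0.49 ± 0.10). KIF11 had 113, 115, 85.9 and 90.3 CPM with control siRNA and 133, 159, 116 and 113 CPM with CNOT1 siRNA, so that the groups overlapped while each pair of the same number rose.

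In polysomal RNA as labelled no kinesin was called by edgeR or DESeq2, each of which called 0% of all genes. None had an unadjusted p below 0.05, beside 1.08% of all genes. Without both libraries of number 3, 14 kinesins were higher with CNOT1 siRNA and 1 was lower, beside 18.8 and 15.5% of all genes. KIF21A had 58.2, 57.3 and 61.4 CPM in control polysomal libraries 1, 2 and 4 and 115, 103 and 106 CPM in the CNOT1 siRNA ones (0.88 ± 0.08, FDR 8.87e-05). The libraries labelled number 3 had 145 CPM with control siRNA and 74.6 CPM with CNOT1 siRNA. KIF23 was at 129, 144 and 144 CPM against 232, 221 and 224 CPM (0.70 ± 0.08, FDR 1.98e-04), with 290 and 157 CPM in the number 3 libraries. KIF1B was at 141, 143 and 145 CPM against 239, 224 and 205 CPM (0.64 ± 0.08, FDR 3.49e-04), with 312 and 200 CPM in number 3. KIF1C was lower, at 262, 239 and 200 CPM against 151, 167 and 155 CPM (−0.57 ± 0.10, FDR 0.00216), with 135 and 196 CPM in number 3. In each of these 4 genes the number 3 libraries lay in the order opposite to the other pairs.

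The shift, the change of the polysomal to subpolysomal ratio after CNOT1 siRNA, was tested as an interaction. As labelled no kinesin was called by edgeR, beside 0.918% of all genes. At an unadjusted p below 0.05 there were 4 higher and 2 lower, beside 8.71 and 6.16% of all genes, and DESeq2 called 2, beside 4.62%. Without both polysomal libraries of number 3 there were 4, all higher, beside 5.18% of all genes called higher. They were KIF5A (0.98 ± 0.23, FDR 0.0175), KIF21A (0.88 ± 0.21, FDR 0.0183), KIF22 (0.83 ± 0.18, FDR 0.0109) and KIF23 (0.78 ± 0.15, FDR 0.00644). For KIF22 the subpolysomal level fell while the polysomal level stood at 139, 135 and 105 CPM with control siRNA and 147, 161 and 129 CPM with CNOT1 siRNA in libraries 1, 2 and 4. For KIF23 the subpolysomal level was even between the siRNAs (−0.09 ± 0.12).

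After TNRC6A and TNRC6B siRNA no kinesin of 34 tested was called by edgeR, beside 0% of 14064 genes, or by DESeq2, beside 0.0569%. At an unadjusted p below 0.05 there was 1 member, beside 2.05% of all genes. TNRC6A itself went from 178 and 188 CPM to 40.5 and 64.7 CPM, a log2 fold change of −1.80 that was not called either (FDR 1). KIF23 had 146 and 179 CPM in control and 261 and 249 CPM in TNRC6A and TNRC6B siRNA libraries, which did not overlap (0.65 ± 0.20, FDR 1). Groups of 2 libraries can separate without any difference, and the share of all genes that did so is not given here. KIF11 had 170 and 232 CPM against 194 and 211 CPM, and KIF5B 514 and 639 CPM against 638 and 700 CPM, both overlapping. KIF1C, at 234 and 118 CPM against 283 and 170 CPM, differed as much within each group as between them.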

How the data were processed

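All 40 libraries were made with a TruSeq stranded mRNA kit and sequenced on a NextSeq500. Per the labels and the study's methods, the authors demultiplexed with bcl2fastq 2.0, aligned to hg19 with TopHat2 and counted reads per gene symbol with HTSeq, and they deposited raw counts, which were used here unscaled. The aligner and counter versions, the annotation and the strand option are not given in the sources used here. A further table held only comparisons made by the authors and was not used. Members and gene lists were chosen with earlier results of these data known. Every member may be named. Values in each library are given for 20 members chosen for their roles, in the comparisons they bear on, and for the called members with the largest increases and decreases of at least 1 CPM mean.

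Each experiment was filtered and TMM-normalised on its own, and genes were tested with edgeR 4.0.16 (R 4.3.3) by the quasi-likelihood F test without a replicate term. The RIP fit held all 12 libraries, and the other fits held the libraries compared. DESeq2 1.42.0, other size factors, no filter, other pseudocounts, other sets of libraries, a replicate block and each library left out in turn were the alternatives. The steps were tested on simulated data. Same-numbered libraries deviated together from their group means, with correlations over genes of 0.184 to 0.782 in RIP, 0.195 to 0.358 in gradient input and 0.586 to 0.736 in subpolysomal RNA, so the block is printed where it changes a call there. Sequence features came from 1 transcript per gene in GENCODE release 44 lifted to GRCh37, the assembly of hg19. The total counts per library, given above, limit what can be seen of members with few counts.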

Additional observations from a re-analysis of the deposited data

Results flagged for a closer look

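For 29 members, each group of 4 gradient libraries was searched for a library that stood apart from the other three by Dixon's test, 174 groups in all, and chance alone marks about 1 in 20 groups. In the library labelled control siRNA polysomal 3, 7 members stood above the other control polysomal libraries. KIF23 had 290 CPM there against 129 to 144 CPM, KIF1B 312 against 141 to 145 CPM, KIF21A 145 against 57.3 to 61.4 CPM, and KIF20B 133 against 61.3 to 69.6 CPM. KIF2C had 202 CPM against 121 to 128 CPM, KIF14 81.4 against 54.1 to 55.8 CPM, and KIF18A 56.5 against 25.9 to 31 CPM. In the library labelled CNOT1 siRNA polysomal 3, KIF23 stood below its group at 157 CPM against 221 to 232 CPM, and KIF3C at 21.2 CPM against 25.7 to 26.5 CPM. These are the 2 libraries whose CNOT1 level went against their labels. One input library was marked too, CNOT1 siRNA input 4, where KIF3A had 70.3 CPM against 79.5 to 80.7 CPM. Taken over all 174 groups, the marks were about as many as a rate of 1 in 20 gives. The share of all genes marked in these libraries is not given here, so the marks cannot be read as particular to kinesins. The RIP libraries were not searched this way. There eIF4A2 immunoprecipitate 3 lay below immunoprecipitates 1 and 2 for KIF7 (28.9 against 77.9 and 73.6 CPM) and KIF16B (4.9 against 12.2 and 11.7 CPM). It did not for others such as KIF1B (234 against 210 and 177 CPM).

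KIF20A differed between proteins that were each compared with the same total RNA. Its log2 ratio of eIF4A2 to DDX6 immunoprecipitates was −0.42 in edgeR's direct test (FDR 0.0479), and the ratio was negative but not called when any of the 6 libraries was left out.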

How the results depend on the processing

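Over all alternatives no member's log2 fold change reversed in sign with a call. In all, 2626 values kept their side of the threshold, 156 passed it newly and 190 no longer did. Some values that were not called changed sign, such as those of KIF18A and KIF20B in the control polysomal ratio without number 3. The number of kinesins called moved by over 1.5 times as follows. Between eIF4A2 and DDX6 (1 called), none was called with no filter on low counts or with only the compared libraries, 2 with DESeq2 (beside 25.5% of all genes), 4 with the replicate block and 0 to 1 with 1 library left out (the 1 was KIF13A, without eIF4A2 replicate 3). Between DDX6 and eIF4A1 (0 called), 1 was called with no filter, with DESeq2 and with the replicate block, and between eIF4A2 and eIF4A1 (0 called) 1 with the block. A joint fit of all 24 gradient libraries called 8 in input (22 in the separate fit) and 9 in subpolysomal RNA (5), beside 29.0 and 32.1% of all genes, where the block called 18. In polysomal RNA (0), 15 were called without both libraries of number 3, and 23 when the block was added, beside 50.4% of all genes, an alternative chosen after seeing the data. For the shift (0), 1 was called with no filter, 2 with DESeq2, 3 with all 24 libraries (beside 5.66%), 4 without number 3, 7 with the block as well (beside 16.6% of all genes), and 0 to 2 with 1 library left out. For TNRC6A and TNRC6B siRNA (0), the block called 3: KIF23 higher (0.66, FDR 0.00141), KIF1A lower (−1.02) and KIF17 lower (−0.85), beside 5.43% of all genes. There same-numbered libraries correlated at 0.862, but with 2 pairs they share only a number. In the polysomal to subpolysomal comparisons same-numbered libraries did not deviate together (−0.44 to 0.185), and in polysomal RNA they ran from −0.562 to 0.102. The block ended the control calls of KIF14, KIF25, KIF4B and KIF6 and the CNOT1 siRNA calls of KIF21B and KIF26A. With 1 library left out, calls ran from 17 to 24 for eIF4A1 (25), 14 to 17 for eIF4A2 (18), 14 to 19 for DDX6 (19), 20 to 25 for the polysomal ratios, 19 to 22 in input and 4 to 5 in subpolysomal RNA. Shares of all genes called in these fits are not given here. A loss among kinesins therefore cannot be told from a general loss of calls with fewer libraries. The causes of these differences were not tested. Of the per-gradient polysomal ratios 12 moved, all in members with few counts when the pseudocount changed. Depth limits KIF2B, KIF4B, KIF12, KIF19 and KIF25, for which few counts were seen.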
